A study of Mus musculus with 24 samples.

Results

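The genes described here encode the integrins and the laminins: the 36 genes of the table analysed here whose symbols name an integrin alpha or beta subunit or a laminin alpha, beta or gamma chain, out of 18820 genes with a probe set of 1 symbol. They comprise 26 integrin and 10 laminin genes. Where a gene had several probe sets, the set with the highest mean over the 24 arrays stood for it.

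RNA from 24 mouse livers was measured on whole-transcript Affymetrix arrays, 1 array for each liver and 3 livers for each of 8 groups, in a study of hepatocyte JNK and NEMO during liver injury and carcinogenesis. All mouse identifiers differ, so the replicates were separate animals. At 52 weeks of age, untreated control mice were set beside NEMO/JNKΔhepa triple knockout mice. Control mice and JNKΔhepa double knockout mice were examined at 40 days of diethylnitrosamine (DEN), a liver carcinogen, and at 28 days of bile duct ligation (BDL), which blocks bile flow. The ages of these treated mice are not given in the labels. At 8 weeks of age, untreated NEMO knockout mice were set beside NEMO/JNK1Δhepa double knockout mice. NEMO (gene Ikbkg) is the regulatory subunit of the kinase complex that activates NF-kB, and JNK1 (Mapk8) and JNK2 (Mapk9) are stress-activated kinases. The labels' protocols name Alb-Cre, in which the albumin promoter drives Cre in hepatocytes, on a C57BL/6 background. JNKΔhepa mice carry floxed Jnk1 and lack Jnk2 in every cell, not only in hepatocytes. They name NEMOf/f and NEMOΔhepa mice as controls of the NEMO/JNKΔhepa line, and do not state which alleles the mice labelled control in each experiment carried.

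Integrins are heterodimers of an alpha and a beta subunit that span the cell membrane and tie the extracellular matrix, or ligands on other cells, to the actin cytoskeleton. Laminins are trimers of an alpha, a beta and a gamma chain that polymerise into the basement membrane under epithelia and around vessels. In liver, hepatocytes face a sinusoidal space without a continuous basement membrane, bile ducts rest on a laminin-rich one, and leukocyte integrins serve adhesion and migration of immune cells.

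The promoters of 4 members with the largest rises at 52 weeks among those with an entry are printed here so that they can be read beside those rises, with that of Lamb3, a chain of an epithelial laminin. RefSeq windows of assembly GRCm38.p6, from 250 bases before to 50 bases after a transcription start, were matched by symbol to 23 of the 36 members. The members with no entry were Itga6, Itga7, Itgad, Itgae, Itgal, Itgb2, Itgb3, Itgb4, Lama1, Lama3, Lama4, Lamc1 and Lamc3. The windows were searched on both strands for letters bound by AP-1, a JNK target (TGANTCA), by TEAD factors (GGAATG) and by NF-kB (GGG, any 5 bases, CC). The 250 bases upstream of the start are printed 5′ to 3′ on the gene's strand, and capitals mark matches that lie wholly in them, overlapping matches being merged. Shown are the laminin alpha 5 gene (chr2:180225860-180226109, minus strand), the integrin alpha 3 gene (chr11:95076715-95076964, minus strand), the integrin beta 6 gene (chr2:60722604-60722853, minus strand), the laminin alpha 2 gene (chr10:27616943-27617192, minus strand), the laminin beta 3 gene at its downstream start (chr1:193301993-193302242, plus strand) and, chosen after the search for its AP-1 match, the integrin alpha X gene (chr7:128129300-128129549, plus strand).
Lama5: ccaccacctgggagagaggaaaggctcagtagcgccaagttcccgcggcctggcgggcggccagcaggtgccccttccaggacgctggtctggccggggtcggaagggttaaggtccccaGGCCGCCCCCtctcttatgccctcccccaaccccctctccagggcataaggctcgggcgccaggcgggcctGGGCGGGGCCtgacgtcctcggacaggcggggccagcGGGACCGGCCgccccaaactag
Itga3: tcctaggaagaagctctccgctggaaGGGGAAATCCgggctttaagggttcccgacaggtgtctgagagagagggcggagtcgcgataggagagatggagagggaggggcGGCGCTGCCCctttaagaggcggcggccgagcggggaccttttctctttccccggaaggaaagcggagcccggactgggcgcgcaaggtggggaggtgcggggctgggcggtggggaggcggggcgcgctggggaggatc
Itgb6: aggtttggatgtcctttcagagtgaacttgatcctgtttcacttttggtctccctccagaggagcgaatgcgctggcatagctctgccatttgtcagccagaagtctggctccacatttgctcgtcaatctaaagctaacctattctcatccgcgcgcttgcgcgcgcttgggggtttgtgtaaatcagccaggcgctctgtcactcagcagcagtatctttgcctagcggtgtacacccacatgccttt
Lama2: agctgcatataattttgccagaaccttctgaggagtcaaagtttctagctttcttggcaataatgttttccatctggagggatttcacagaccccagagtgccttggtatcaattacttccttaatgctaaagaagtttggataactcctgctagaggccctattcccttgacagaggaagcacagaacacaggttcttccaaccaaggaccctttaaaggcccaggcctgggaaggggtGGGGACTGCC
Lamb3: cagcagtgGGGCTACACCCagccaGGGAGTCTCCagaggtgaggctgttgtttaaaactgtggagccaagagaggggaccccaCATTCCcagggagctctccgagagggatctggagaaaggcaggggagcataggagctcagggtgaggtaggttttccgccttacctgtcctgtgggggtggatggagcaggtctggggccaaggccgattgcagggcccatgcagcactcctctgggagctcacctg
Itgax: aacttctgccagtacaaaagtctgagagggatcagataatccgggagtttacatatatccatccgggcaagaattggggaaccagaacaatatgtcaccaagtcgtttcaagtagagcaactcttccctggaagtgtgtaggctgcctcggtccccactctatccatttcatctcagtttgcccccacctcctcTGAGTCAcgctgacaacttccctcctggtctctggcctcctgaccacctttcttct
The capitals in Lama5, Itga3 and Lama2 are NF-kB matches. In Lamb3 they are NF-kB matches and 1 TEAD match, read as CATTCC at positions -167 to -162 from the start. Itgax held the palindromic AP-1 match TGAGTCA at positions -56 to -50, and Itgb6 held none of the 3 motifs. An AP-1 match also lay at bases 13 to 19 of the second start of Itga3 and at bases 39 to 45 from the start of Itga9.

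AP-1 letters stood in the windows of 3 of 23 members (13%) against 8.97% of 27025 genes with a window. TEAD letters stood in 3 members (13%), Itga10, Itgb1 and Lamb3, against 16.6% of genes. NF-kB letters stood in 14 members (60.9%) against 53.5% of genes, so that a match to this loose pattern was found in most genes of any kind. Among the 15 members with a window that rose at 52 weeks (below), 2 held AP-1 letters, 2 held TEAD letters and 8 held NF-kB letters (53.3%). Of the 8 members with a window that were not called higher, 1 held AP-1 letters, 1 TEAD letters and 6 NF-kB letters (75%). A match is a run of letters only.

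The targeted genes were read in every liver first. Mapk8 was lower in NEMO/JNKΔhepa than in control livers at 52 weeks (5.58 to 5.78 against 6.33 to 6.69, log2) and lower in JNKΔhepa livers after DEN (5.76 to 5.98 against 6.36 to 6.63) and BDL (5.41 to 6.00 against 6.55 to 6.84). It lay between 5.72 and 6.41 in NEMO/JNK1Δhepa livers and between 6.50 and 6.82 in NEMO knockout livers. Ikbkg was lower at 52 weeks (6.43 to 6.47 against 7.00 to 7.48). Mapk9 lay between 2.82 and 3.51 in all 18 livers other than the 8-week ones, control livers included, and between 7.99 and 8.53 in the 8-week livers. The comparisons with livers labelled control therefore held no contrast in Mapk9. In the livers labelled NEMO knockout Ikbkg lay between 6.80 and 7.26, so this probe set did not bear out the 8-week labels. Hepatocyte markers were high in every liver, with list means of 11.66 to 12.43 over 11 genes.

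A log2 difference of 1 is a doubling of the array signal, and levels were compared only within a gene, since probe sets differ in brightness. The members spread very unevenly over the 8 groups. The group means spanned 2.46 for Lama5, 2.15 for Itga3, 2.14 for both Itgb4 and Itgam, and 2.10 for Itga2, the integrin alpha 2 subunit of a collagen receptor. They spanned less than 0.5 in Itgad (0.42), Itga7 (0.41), Itga2b (0.37) and Itga10 (0.31). Of the 36 members, 21 had their lowest group mean in control livers at 52 weeks, and 13 had their highest in NEMO/JNKΔhepa livers of that age. Control livers after BDL were highest for 7 members, and JNKΔhepa livers after BDL and NEMO/JNK1Δhepa livers for 6 each. The same counts were not made over all genes.

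**Figure D1:**
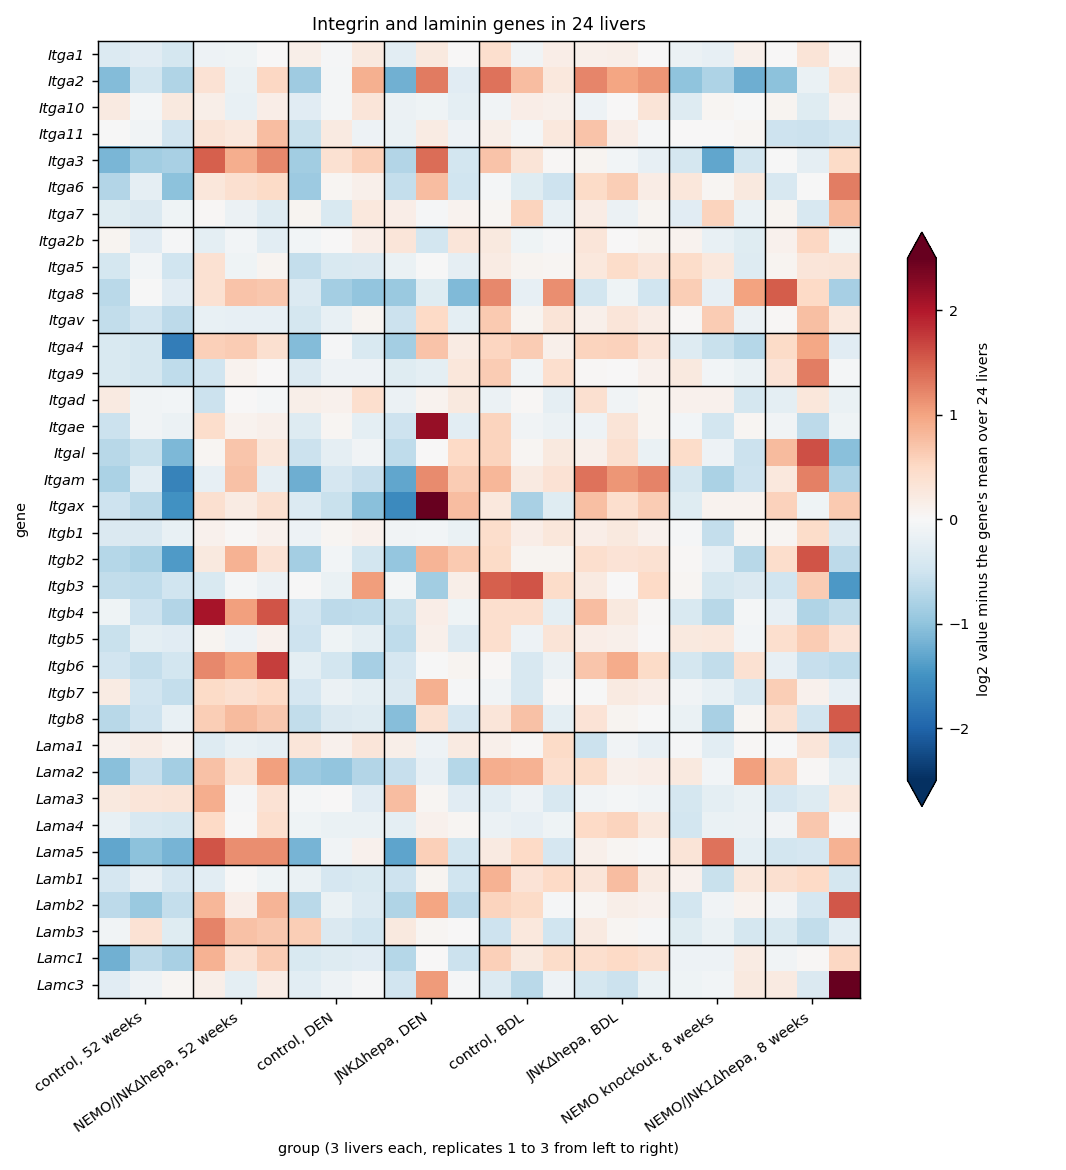
Each row is 1 of the 36 genes and each column 1 of the 24 livers, with colour giving the log2 value minus the gene's mean over all livers. The 52-week controls have the lowest group mean for 21 genes and the NEMO/JNKΔhepa livers the highest for 13, and single livers stand out in the DEN-treated JNKΔhepa group and the NEMO/JNK1Δhepa group.

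Within groups, 2 sets of livers were far more variable than the others. Among DEN-treated JNKΔhepa livers, 17 of 36 members had an SD above 0.5 (median SD 0.43), and among NEMO/JNK1Δhepa livers 15 members did (median SD 0.42). The count was 0 to 7 in the other 6 groups. These counts, and the ranks of livers below, were made over the members only. They do not tell a trait of the family from a shift of the whole array. Replicate 2 of the DEN-treated JNKΔhepa livers was the highest of its group for 26 of 36 members, and replicate 1 the lowest for 25. In that replicate 2, Itgax, the integrin alpha X (CD11c) subunit of dendritic cells and macrophages, stood at 7.92 against 3.82 and 6.18 in the other livers of the group. Itgae, the alpha E (CD103) subunit of a receptor for E-cadherin, stood at 5.87 against 3.18 and 3.44. Itga3 was 7.90 against 5.77 and 6.05, Lamb2 7.08 against 5.35 and 5.45, and Lamc3 5.85 against 4.33 and 4.76. The same liver had the epithelial marker Epcam at 8.81 (4.26 and 5.33 in the others), the dendritic cell marker Cd209a at 7.87 (4.10 and 3.82) and the highest biliary epithelium list mean, 7.14 in a group that began at 5.06. The part of these markers in its integrin levels was not tested.

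Among NEMO/JNK1Δhepa livers, different members were high in different animals. Replicate 2 had Itgb2 at 9.19, Itgal at 8.73, Itgam at 7.40 and Itga9 at 9.21, against at most 8.05, 7.90, 6.41 and 8.27 in the other livers of the group. All 4 encode integrin subunits found on leukocytes, and the macrophage list mean of 12 genes ran from 7.22 to 10.36 in this group, its top value lying in the same liver. Replicate 3 had the lowest Itgb2 (6.95), Itgal (6.06) and Itgam (5.38). It had instead the highest Lamc3 (7.28 against 5.02 and 4.44), Lamb2 (7.65 against 6.01 and 5.68), Itgb8 (6.32 against 5.17 and 4.32) and Itga6 (6.61 against 4.92 and 5.32). The biliary progenitor factor Sox9 stood at 10.12 there against 7.57 and 7.31. The mean of the 11 biliary epithelium markers, Sox9 among them, ran from 5.17 to 5.51 in this group, so the list did not rise as Sox9 did. The part of these markers in the members' values was not tested.

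**Figure D2:**
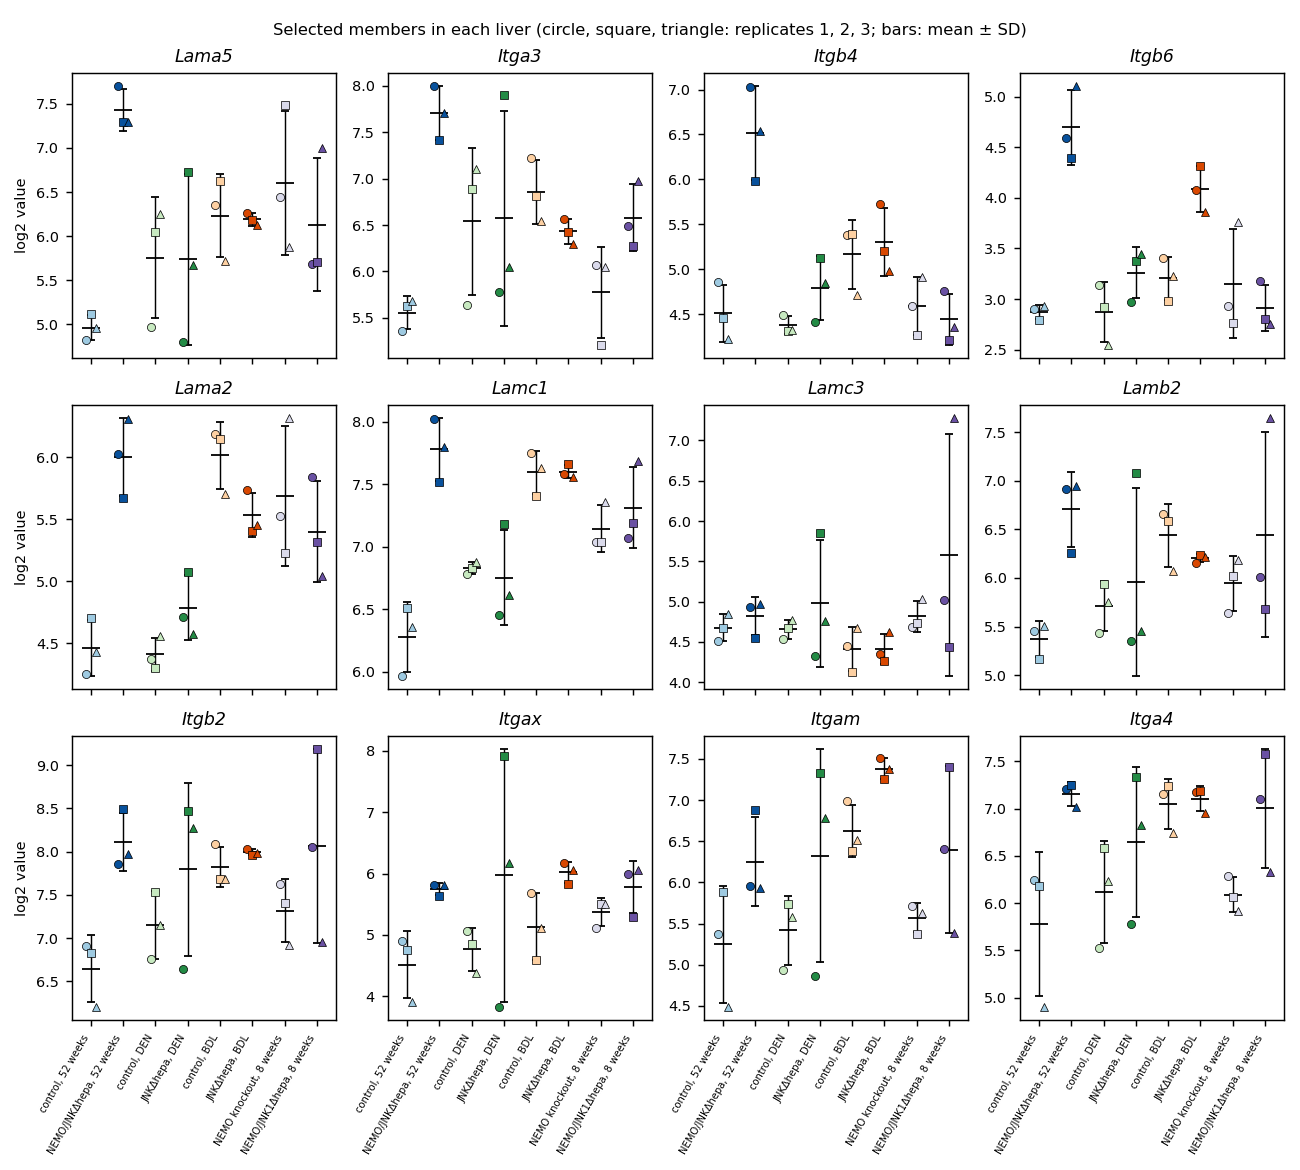
Log2 values of 12 members in each liver by group, with replicates 1, 2 and 3 as circle, square and triangle and bars for the mean ± SD of 3 livers. Lama5, Itga3 and Itgb4 are highest in NEMO/JNKΔhepa livers, while Itgax reaches 7.92 in 1 DEN-treated JNKΔhepa liver and Lamc3 7.28 in 1 NEMO/JNK1Δhepa liver.

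At 52 weeks the integrins and laminins were higher in NEMO/JNKΔhepa livers as a broad group. By limma with Benjamini-Hochberg adjustment over all genes, 21 of 36 members rose and 1 fell at an adjusted p under 0.05, where 21.5% of all genes were called (13.6% higher and 7.9% lower). The median difference was 0.70 over the members and -0.05 over all genes tested. The groups did not overlap for 26 members in the upward and 1 in the downward direction, against 41.2% of all genes (20.9% upward and 20.3% downward), and 28 members had an unadjusted p under 0.05 against 35.4%. The rises covered 6 of 8 integrin beta subunits, 2 of 3 laminin-binding, 2 of 4 collagen-binding, 2 of 4 RGD-binding and 2 of 5 leukocyte alpha subunits, and Itga4 but not Itga9 of the remaining pair. Among laminins they covered 3 of 5 alpha, 2 of 3 beta and 1 of 2 gamma chains. In bulk liver, a change in the number of cells of a type and a change in RNA per cell cannot be told apart.

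Lama5, the laminin alpha chain of mature epithelial and vascular basement membranes, had the largest difference. It stood at 4.82, 5.11 and 4.96 in control and at 7.70, 7.29 and 7.29 in NEMO/JNKΔhepa livers, a rise of 2.46 ± 0.15 (SE, n = 3 against 3, adjusted p = 4.01e-05, limma) or 5.50-fold. All 3 knockout livers lay more than 2 log2 units above every control. Lama2, the alpha chain of muscle and mesenchymal basement membranes, stood at 4.25, 4.70 and 4.43 in control and at 6.03, 5.68 and 6.31 in knockout livers. That was a rise of 1.54 ± 0.19 (SE, adjusted p = 0.000789, limma) with no overlap. Lamc1, the gamma chain shared by most laminins, stood at 5.96, 6.51 and 6.36 against 8.02, 7.52 and 7.80 in knockout livers, a rise of 1.50 ± 0.18 (SE, adjusted p = 0.000801, limma). Its highest control value lay 1 log2 unit below its lowest knockout value. Lamb2, a beta chain that pairs with gamma 1, stood at 5.45, 5.16 and 5.50 in control and at 6.92, 6.25 and 6.94 in knockout livers, the second of which was the lowest. Its rise was 1.33 ± 0.20 (SE, adjusted p = 0.00217, limma).

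The other laminin chains moved less or did not pass the test. Lama4, an endothelial alpha chain, rose by 0.65 ± 0.16 (SE, adjusted p = 0.0195, limma). Lamb3, the beta chain of an epithelial laminin, rose by 0.89 ± 0.21 (adjusted p = 0.0161, limma), while Lama3, the alpha chain of the same trimer, differed by 0.12 (95% interval from -0.37 to 0.60). Lama1, the alpha chain of embryonic laminin, was the 1 member that fell: it stood at 4.97, 5.03 and 4.94 in control and 4.52, 4.67 and 4.63 in knockout livers, lower by 0.37 ± 0.11 (SE, adjusted p = 0.0443, limma). The groups did not overlap, but the call was lost without any 1 of the 6 livers. Lamb1 (0.22) and Lamc3 (0.14) were not called.

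Of the laminin receptors, both the alpha 3 and alpha 6 subunits and the beta 4 subunit rose. Itga3, which pairs with beta 1 as a receptor for laminins of epithelial basement membranes, stood at 5.35, 5.63 and 5.69 in control and at 8.00, 7.42 and 7.71 in knockout livers. The rise was 2.15 ± 0.17 (SE, adjusted p = 0.000115, limma), 4.44-fold, and every knockout liver lay far above every control. Itgb4, which pairs with alpha 6 in hemidesmosomes, stood at 4.86, 4.45 and 4.23 in control and at 7.02, 5.99 and 6.54 in knockout livers, a rise of 2.01 ± 0.26 (SE, adjusted p = 0.00112, limma). The knockout livers differed among themselves by 1 log2 unit and still did not reach down to the controls. Itga6, the partner of beta 4, stood at 4.60, 5.11 and 4.31 in control and at 5.62, 5.72 and 5.81 in knockout livers, a rise of 1.04 ± 0.19 (SE, adjusted p = 0.00587, limma). Itga7, a laminin receptor of muscle, differed by 0.11 and was not called.

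Itgb6 and Itgb8 encode beta subunits that pair with alpha V and release latent TGF-beta; beta 6 is found on epithelia. Itgb6 stood at 2.90, 2.79 and 2.93 in control and at 4.59, 4.40 and 5.11 in knockout livers, a rise of 1.83 ± 0.18 (SE, adjusted p = 0.000313, limma). The control values were below the lower quartile of every array, whose quartiles ran from 3.09 to 3.23, and were very close to each other. Itgb8 stood at 4.09, 4.29 and 4.62 in control and at 5.41, 5.58 and 5.48 in knockout livers, a rise of 1.16 ± 0.15 (SE, adjusted p = 0.00117, limma). Their partner Itgav rose by 0.39 ± 0.11 (adjusted p = 0.0362, limma), a smaller difference than that of either beta subunit. The collagen receptor subunit Itga2 stood at 4.19, 4.82 and 4.53 in control and at 5.65, 5.11 and 5.80 in knockout livers, a rise of 1.01 ± 0.22 (SE, adjusted p = 0.0112, limma). Every knockout liver lay above every control, though the second knockout liver only narrowly.

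Of the leukocyte integrins, the beta 2 subunit, 2 of 5 alpha subunits (Itgal and Itgax) and Itga4 rose. Itgb2, the beta 2 (CD18) subunit shared by leukocyte integrins, stood at 6.90, 6.83 and 6.20 in control and at 7.86, 8.49 and 7.98 in knockout livers, a rise of 1.46 ± 0.23 (SE, adjusted p = 0.00254, limma). Itgal, its alpha L (CD11a) partner on lymphocytes and other leukocytes, stood at 6.41, 6.55 and 5.99 against 7.15, 7.80 and 7.39, a rise of 1.13 ± 0.20 (SE, adjusted p = 0.00485, limma). Neither gene's groups overlapped. Itgax stood at 4.90, 4.75 and 3.90 in control and at 5.81, 5.63 and 5.81 in knockout livers, a rise of 1.23 ± 0.24 (SE, adjusted p = 0.00736, limma). Itga4, whose product binds VCAM1 and fibronectin, stood at 6.25, 6.19 and 4.90 against 7.21, 7.25 and 7.02, a rise of 1.38 ± 0.32 (SE, adjusted p = 0.0156, limma). Control replicate 3 was the lowest liver for all 4 of these genes, and without it the rise of Itga4 was 0.94 and that of Itgax 0.92, both still called. Itgam, the alpha M (CD11b) subunit of myeloid cells, stood at 5.37, 5.89 and 4.48 in control and at 5.95, 6.88 and 5.93 in knockout livers and was not called. Its groups did not overlap, but only narrowly so. Itgae (0.47, adjusted p = 0.0697, limma) and Itgad, the alpha D subunit (-0.22, adjusted p = 0.393, limma), were not called either.

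Of the remaining called members, Itga8, a subunit of mesenchymal cells, rose by 0.91, Itgb7, a lymphocyte subunit, by 0.74, Itga11, a collagen receptor of fibroblasts, by 0.64, and Itgb1, the partner of most matrix-binding alpha subunits, by 0.39. A second Itgb1 probe set differed by -0.35 (adjusted p = 0.331, limma), and the mean of both by 0.02. When 1 liver was left out in turn, 15 of the 22 calls stood each time: the 14 rises given liver by liver above and Itga8. Of these 15, 5 lost their call with all 24 arrays in 1 fit: Itgax (adjusted p = 0.159, limma), Itga2 (0.158), Itga8 (0.164), Itgal (0.0828) and Itga6 (0.0587). Itga11, Itgav, Itgb1, Itgb7, Lama1, Lama4 and Lamb3 each lost theirs without some liver. Without control replicate 2 Itgam was called higher, and without NEMO/JNKΔhepa replicate 1 Itga9 and Itgb3 were. Centring each array on its median, which moved the median of all genes from -0.05 to -0.37, left 16 members higher and 4 lower, with Itga10, Itga2b and Itgad joining Lama1. The differences of Itga1, Itga7, Lama3, Lamb1 and Lamc3, none of them called, turned negative (-0.21 to -0.04), and those of Itga7, Lama3, Lamb1 and Lamc3 also did so after quantile normalisation. Over all genes the split of calls was 2562 higher and 1486 lower in the deposited scaling, 1570 and 8942 after centring, and 2122 and 2417 after quantile normalisation.

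**Figure D3:**
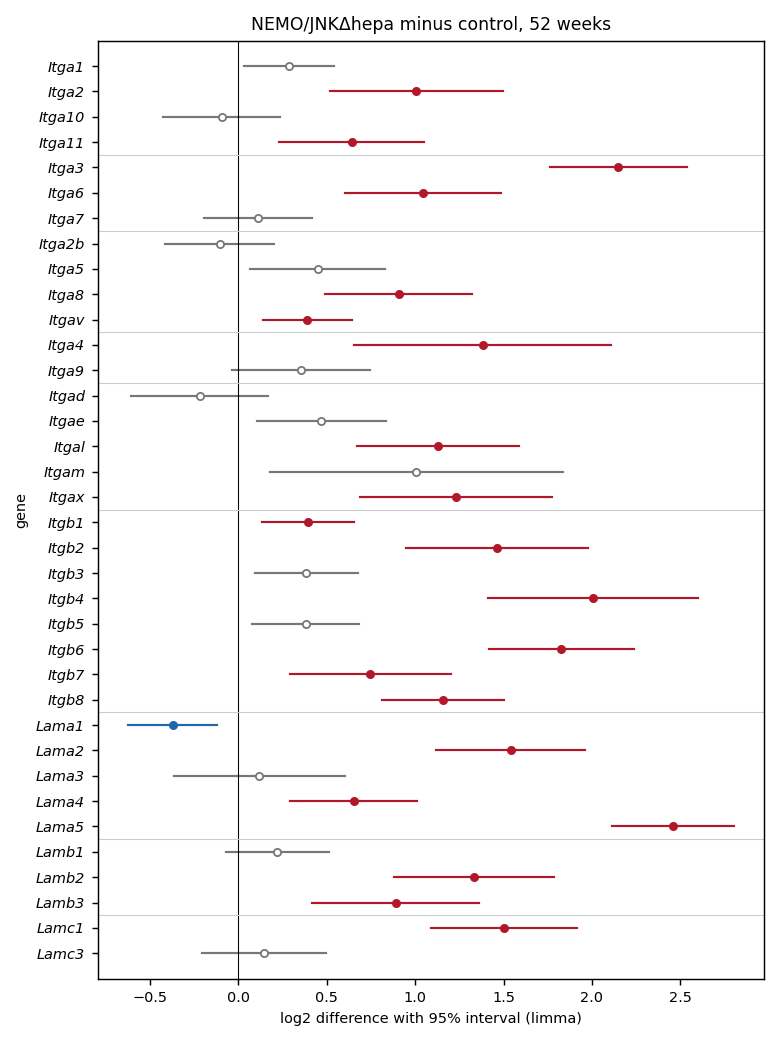
Log2 difference of each of the 36 members between NEMO/JNKΔhepa and control livers at 52 weeks (3 against 3), with the 95% interval from limma; filled red points were called higher, the filled blue point lower and open grey points were not called. Lama5 lies at 2.46, Itga3 at 2.15 and Itgb4 at 2.01, and Lama1 at -0.37 is the only call below 0.

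Genes that work with the members were read from lists chosen with earlier results of these data known. Of 15 measured basement membrane partners, 5 rose and none fell, among them the heparan sulfate proteoglycan agrin (Agrn, by 1.54 ± 0.16), Col4a5 (1.06 ± 0.15) and nidogen 1 (Nid1, 1.38 ± 0.25), which links laminin to collagen IV. Of 18 other integrin ligands 10 rose, led by the matricellular Ccn2 (2.47 ± 0.17), Mfge8 (2.29 ± 0.18), a ligand of alpha V integrins, and E-cadherin (Cdh1, 2.76 ± 0.27), the ligand of alpha E. Of 26 adhesion complex genes 13 rose and 2 fell, with filamin A (Flna, 1.46 ± 0.12), alpha-actinin 1 (Actn1, 1.05 ± 0.12) and dystonin (Dst, 1.12 ± 0.14) by smallest p. The background was 13.6% higher and 7.9% lower.

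Markers of cell types were read in the same comparison, where 13.6% of all genes were called higher and 7.9% lower. All 11 measured biliary epithelium markers rose, and the list's mean level ran from 8.02 to 8.48 in NEMO/JNKΔhepa livers against 4.46 to 5.21 in control livers. Macrophage and Kupffer cell markers rose in 9 of 12 (list mean 8.16 to 9.48 against 7.11 to 7.71), T and NK cell markers in 6 of 11 (4.70 to 5.13 against 3.95 to 4.48), and B and plasma cell markers in 3 of 7 (6.02 to 6.88 against 4.30 to 6.22). Neutrophil markers rose in 1 of 9, dendritic cell markers in 1 of 7, platelet markers in 1 of 4, smooth muscle and mesothelium markers in 1 of 6, and exocrine pancreas and adipose markers in none of 7. Stellate cell and myofibroblast markers rose in 2 and fell in 1 of 12, sinusoidal endothelium markers rose in 1 and fell in 2 of 10, and hepatocyte markers fell in 3 of 11. The part of these cell types in the integrin and laminin differences was not tested.

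After 40 days of DEN, none of the 36 members was called between JNKΔhepa and control livers, and none of the 18820 genes was (0%). By limma 1 member and 4.15% of all genes had an unadjusted p under 0.05, and the count of called members stayed 0 in every alternative fit, including the one without JNKΔhepa replicate 2. Groups did not overlap for 2 members, both higher, against 9.47% of all genes (3.26% higher and 6.21% lower). These were Itga5, the fibronectin receptor alpha subunit, and Lama2. Itga5 stood at 6.82, 7.03 and 7.04 in control and at 7.24, 7.41 and 7.18 in JNKΔhepa livers, a difference of 0.32 ± 0.13 (SE, adjusted p = 0.985, limma). Lama2 stood at 4.38, 4.30 and 4.56 in control and at 4.72, 5.08 and 4.57 in JNKΔhepa livers, 0.38 ± 0.16 apart (adjusted p = 0.985, limma). Its lowest knockout value was barely above its highest control value.

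The next members by p were Itgb4 and Itgb6. Itgb4 stood at 4.49, 4.32 and 4.33 in control and at 4.42, 5.12 and 4.85 in JNKΔhepa livers, and Itgb6 at 3.14, 2.92 and 2.55 against 2.97, 3.38 and 3.44. Both groups overlapped in each gene. For members that stood apart in 1 liver the intervals were wide: Itgax differed by 1.21 with a 95% interval from -0.98 to 3.39. The basement membrane, ligand, adhesion complex and cell type lists held 0 called genes.

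After 28 days of BDL, 1 of 36 members rose and none fell in JNKΔhepa livers, where 1.35% of all genes were called (0.797% higher and 0.558% lower). Itgb6 stood at 3.41, 2.98 and 3.23 in control and at 4.08, 4.32 and 3.86 in JNKΔhepa livers, a rise of 0.88 ± 0.16 (SE, adjusted p = 0.0456, limma). The groups did not overlap, but the call was lost in 10 of 14 alternative fits, where the difference stayed between 0.76 and 0.99. Each of the 6 fits that left out 1 liver lost it, with adjusted p from 0.0541 to 0.175 (limma). The control livers of this experiment carried mouse identifiers of 2 series and the knockout livers of 1. Only control replicate 3 shared the series of the knockout livers. With the series as a block the difference was 0.86, and it rested on that 1 control liver.

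Members that were not called differed in both directions, the upward ones named here lying closer to the threshold. Lama4 stood at 5.95, 5.90 and 5.99 in control and at 6.60, 6.65 and 6.37 in JNKΔhepa livers, 0.59 ± 0.11 apart (SE, adjusted p = 0.0517, limma), and was called in 4 of the alternative fits. Itgam stood at 6.99, 6.38 and 6.51 against 7.51, 7.26 and 7.38, 0.76 ± 0.17 apart (adjusted p = 0.0870, limma), and was called without control replicate 1 (0.94, adjusted p = 0.0391, limma). Itga6 stood at 5.28, 5.03 and 4.81 against 5.81, 5.94 and 5.50, 0.71 ± 0.16 apart (adjusted p = 0.0924, limma). In all 3 genes every JNKΔhepa liver lay above every control. In the downward direction Itga8 differed by -1.08 (adjusted p = 0.210, limma) and Itgb3, the beta 3 subunit of vascular cells and platelets, by -0.93 (adjusted p = 0.189, limma). In each of these 2 genes 1 control liver lay within the range of the knockout livers: Itga8 was 7.76, 6.34 and 7.71 in control against 6.06 to 6.43, and Itgb3 was 7.27, 7.36 and 6.23 against 5.80 to 6.27. Without control replicate 2 Itga8 was called lower (-1.54, adjusted p = 0.00551, limma), and without control replicate 3 Itgb3 was (-1.29, adjusted p = 0.0112, limma). The fit without control replicate 3 kept no control of the knockout livers' mouse series, so series and genotype cannot be told apart in it. Lama1 was the 1 lower member whose groups did not overlap, and it was not called. It stood at 4.98, 4.89 and 5.34 in control and at 4.32, 4.76 and 4.65 in JNKΔhepa livers.

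Over the family, 10 of 36 members had an unadjusted p under 0.05 against 14.6% of all genes, and the groups did not overlap for 7 higher and 1 lower member against 20.7% (9.95% higher and 10.7% lower). The median difference was 0.00 over the members and 0.00 over all genes. Of the partner lists, 1 of 15 basement membrane partners rose (Col15a1, by 0.76 ± 0.11), and no integrin ligand or adhesion complex gene was called. Biliary markers rose in 2 of 11 (Prom1 and Muc1, list mean 6.69 to 7.28 against 5.44 to 6.36), platelet markers in 2 of 4 (Ppbp and Pf4, 5.42 to 5.57 against 4.59 to 4.85), and dendritic cell markers in 1 of 7. Neutrophil markers were not called (0 of 9), but all 9 were higher and 6 had an unadjusted p under 0.05 (limma). Their list mean ran from 5.99 to 6.34 against 5.02 to 5.99. Stellate cell markers rose in 1 (Acta2) and fell in 1 (Lrat) of 12. Lyve1 of sinusoidal endothelium fell, as did the adipose marker Cidec. Their part in the values of Itgb6, Lama4, Itgam and Itga6 was not tested.

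The JNKΔhepa effect was also compared between the injuries by an interaction term over 12 arrays. None of the 36 members was called, against 9 genes (0.0478%, of which 0.0213% higher and 0.0266% lower), and 2 members had an unadjusted p under 0.05 against 7.11% of all genes. Of the ligated controls, only replicate 3 shared the mouse series of the other livers in this fit, so the BDL effect mixes series with genotype. Lama2 was 0.38 higher with the knockout after DEN and 0.48 lower after BDL, a difference between the effects of -0.86 ± 0.24 (SE, adjusted p = 0.457, limma). In ligated control replicate 3 Lama2 stood at 5.70, within the 5.41 to 5.74 of ligated JNKΔhepa livers, against 6.19 and 6.15 in the other ligated controls. Lama4 was 0.11 higher after DEN and 0.59 higher after BDL, 0.48 ± 0.17 apart (adjusted p = 0.568, limma). For Itgb6, called after BDL only, the difference between effects was 0.49 with a 95% interval from -0.10 to 1.08, so the effects were not shown to differ. That of Itga8 was -1.03 (-2.11 to 0.05).

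At 8 weeks, none of the 36 members and none of the 18820 genes (0%) was called between livers labelled NEMO/JNK1Δhepa and livers labelled NEMO knockout. By limma 3 members and 7.66% of all genes had an unadjusted p under 0.05, and the count of called members was 0 in every alternative fit. The groups did not overlap for 4 higher and 1 lower member, against 14.4% of all genes (6.71% higher and 7.66% lower). The mouse identifiers of the 2 groups came from different series, so series and genotype cannot be told apart. Itga11, the fibroblast collagen receptor, stood at 3.78, 3.77 and 3.82 in NEMO knockout and at 3.26, 3.24 and 3.31 in NEMO/JNK1Δhepa livers, a difference of -0.52 ± 0.10 (SE, adjusted p = 0.544, limma). Within each group the values lay very close together, and every NEMO/JNK1Δhepa liver was below every NEMO knockout liver. The NEMO/JNK1Δhepa values were dim, just above the lower quartiles of the arrays (3.09 to 3.23). Itga4 stood at 6.29, 6.07 and 5.91 against 7.10, 7.58 and 6.33, 0.91 ± 0.31 apart (adjusted p = 0.604, limma). Itga3 stood at 6.07, 5.21 and 6.05 against 6.49, 6.28 and 6.98, 0.80 ± 0.29 apart (adjusted p = 0.609, limma). Itgb5, an alpha V partner that binds vitronectin, stood at 9.40, 9.41 and 9.08 against 9.57, 9.78 and 9.48, 0.32 ± 0.15 apart (adjusted p = 0.650, limma). In Itga4, Itga3 and Itgb5 every NEMO/JNK1Δhepa liver lay above every NEMO knockout liver. No gene of the partner or cell type lists was called.

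**Figure D4:**
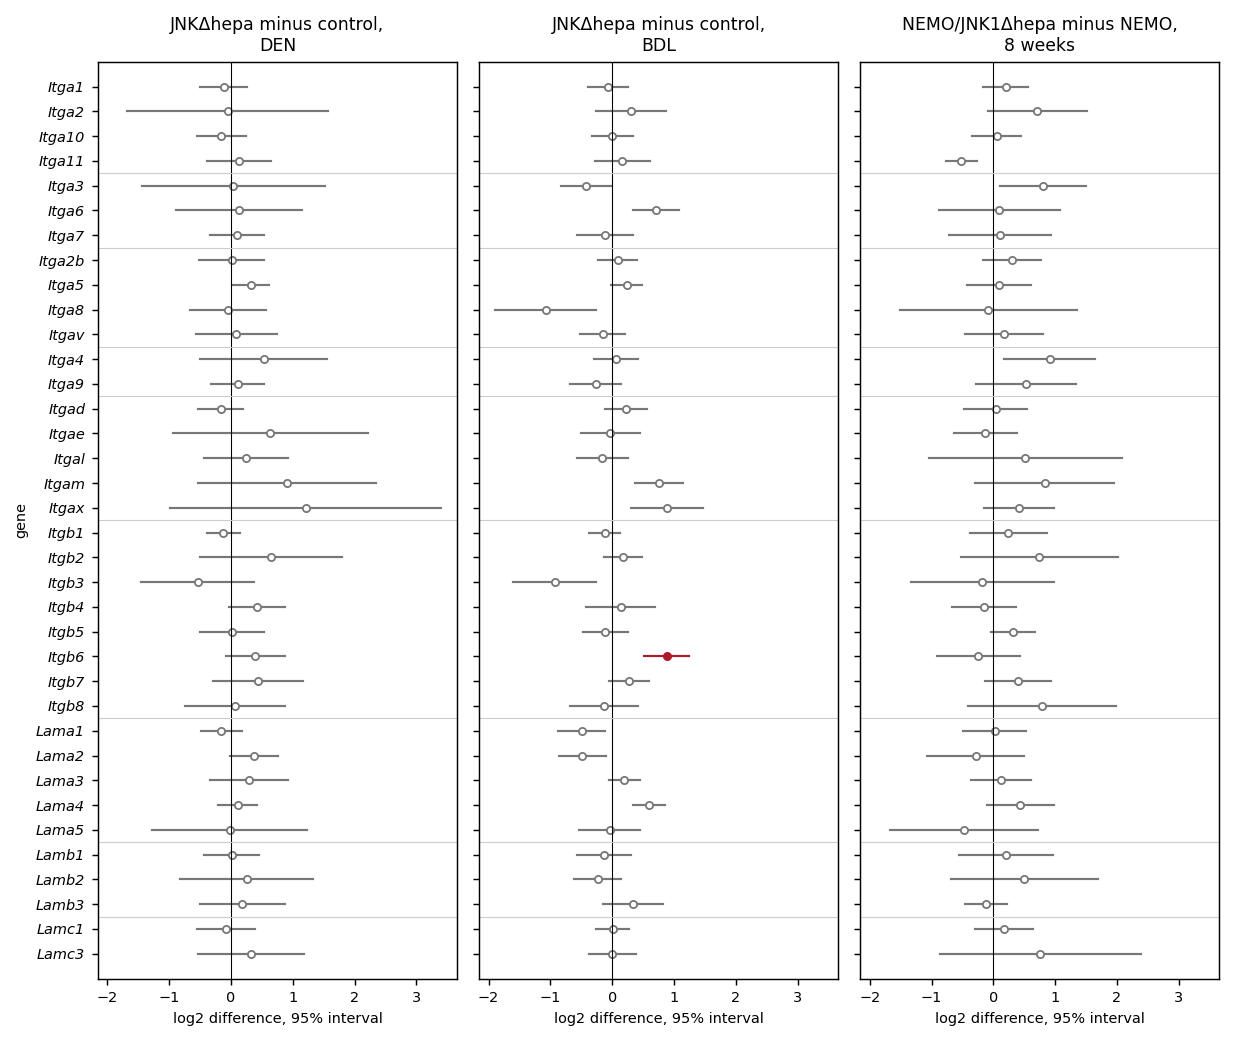
Log2 differences of the 36 members with 95% intervals from limma (3 against 3 livers) for JNKΔhepa against control after DEN, the same after BDL, and NEMO/JNK1Δhepa against NEMO knockout at 8 weeks; the filled red point was called and open grey points were not. Itgb6 after BDL, at 0.88, is the only call, and Itgax after DEN has an interval from -0.98 to 3.39.

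The 2 injuries were set beside each other within a genotype as a secondary comparison; ages are not given, and these comparisons share their livers with those above. In control livers, 4 of 36 members were higher after BDL than after DEN and none lower, with 2.48% of all genes called (1.74% higher and 0.739% lower). Lama2 stood at 4.38, 4.30 and 4.56 after DEN and at 6.19, 6.15 and 5.70 after BDL, 1.60 ± 0.16 higher (SE, adjusted p = 0.00613, limma). No DEN-treated control came within 1 log2 unit of a ligated one. Lamc1 stood at 6.78, 6.83 and 6.87 against 7.75, 7.41 and 7.63, 0.77 ± 0.13 higher (SE, adjusted p = 0.0292, limma). Lamb1, the beta chain that assembles with alpha 2 and gamma 1, stood at 6.13, 5.86 and 5.91 against 7.16, 6.63 and 6.78, 0.89 ± 0.16 higher (SE, adjusted p = 0.0388, limma). Itgam stood at 4.94, 5.74 and 5.58 against 6.99, 6.38 and 6.51, 1.21 ± 0.24 higher (SE, adjusted p = 0.0493, limma). None of the 4 genes had overlapping groups.

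These calls differed in how firmly they stood. Lama2 stayed called in 13 of 14 alternatives, the exception being the mouse series as a block. Ligated control replicates 1 and 2 were of a series that no DEN-treated control carried. The block fit thus set ligated control replicate 3 alone against the DEN-treated controls, with a difference of 1.29 in Lama2. Itgam lost its call in 12 of 15 alternatives, among them each of the 6 fits without 1 liver. Lamb1 and Lamc1 lost theirs without any 1 DEN-treated control liver and without ligated control replicate 1, and Lamb1 also without ligated control replicate 2. Itga8 was called higher without ligated control replicate 2, and Itgb4, Itgb8 and Lamb2 without replicate 3. Without replicate 3 no ligated control shared the series of the DEN-treated controls, so injury and series cannot be told apart in that fit. Groups did not overlap for 15 higher and 1 lower member, against 24.9% of all genes (12.8% higher and 12.2% lower), and 16 members had an unadjusted p under 0.05 against 19.1%. The median difference was 0.42 over the members and -0.03 over all genes. Centring each array on its median moved the latter to -0.14 and the split of calls over all genes from 327 higher and 139 lower to 230 and 192. Of the partner lists, 4 of 15 basement membrane partners rose (Col15a1, Smoc2 and Col4a1 leading), 2 of 18 integrin ligands (Thbs2 and Ltbp1) and 1 of 26 adhesion complex genes (Fermt1). Stellate cell and myofibroblast markers rose in 9 of 12 (list mean 8.05 to 8.60 against 6.38 to 6.43) and biliary markers in 3 of 11 (5.44 to 6.36 against 4.66 to 5.48). Macrophage markers rose in 1 of 12 and smooth muscle and mesothelium markers in 1 of 6, while 1 gene of each of the hepatocyte, sinusoidal endothelium and B cell lists fell. No neutrophil marker was called (0 of 9), but 8 of 9 had an unadjusted p under 0.05 and the list mean ran from 5.02 to 5.99 against 4.18 to 4.88. The part of these markers in the values of the laminins and of Itgam was not tested.

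In JNKΔhepa livers no member was called between BDL and DEN, against 1.08% of all genes (0.77% higher and 0.313% lower). By limma 7 members had an unadjusted p under 0.05 against 13.4% of all genes, and the groups of 7 members, all higher after BDL, did not overlap against 19.9% (10.5% higher and 9.39% lower). Without DEN-treated JNKΔhepa replicate 2, the liver described above as standing apart, 9 members were called higher: Itga2, Itga5, Itga6, Itgav, Itgb6, Lama2, Lamb1, Lamb2 and Lamc1. That liver was marked from these same members. It was the highest of its group for 26 of 36, so leaving it out lowers the DEN mean of those members. No other fit that left out 1 liver called a member. With array weights 11 were, and with all 24 arrays in 1 fit Lamc1 alone. Itgb6 stood at 2.97, 3.38 and 3.44 after DEN and at 4.08, 4.32 and 3.86 after BDL, 0.82 ± 0.18 apart (SE, adjusted p = 0.0972, limma). Lama2 stood at 4.72, 5.08 and 4.57 against 5.74, 5.41 and 5.46, 0.75 ± 0.17 apart (adjusted p = 0.106, limma). Lamc1 stood at 6.46, 7.18 and 6.62 against 7.58, 7.66 and 7.56, 0.85 ± 0.19 apart (adjusted p = 0.109, limma). Itga5 stood at 7.24, 7.41 and 7.18 against 7.67, 7.86 and 7.72, 0.47 ± 0.12 apart (adjusted p = 0.134, limma). In all 4 genes the ligated livers lay above the DEN-treated ones, and the difference in Lama2 was 0.75 here and 1.60 in control livers. Tenascin C (Tnc, by 1.89 ± 0.25), 1 of 18 integrin ligands, rose, as did 6 of 12 stellate cell (list mean 8.19 to 8.33 against 6.30 to 7.16), 4 of 9 neutrophil, 1 of 12 macrophage and 1 of 6 smooth muscle and mesothelium markers. No basement membrane partner or adhesion complex gene was called, and the part of the markers in the members' values was not tested.

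**Figure D5:**
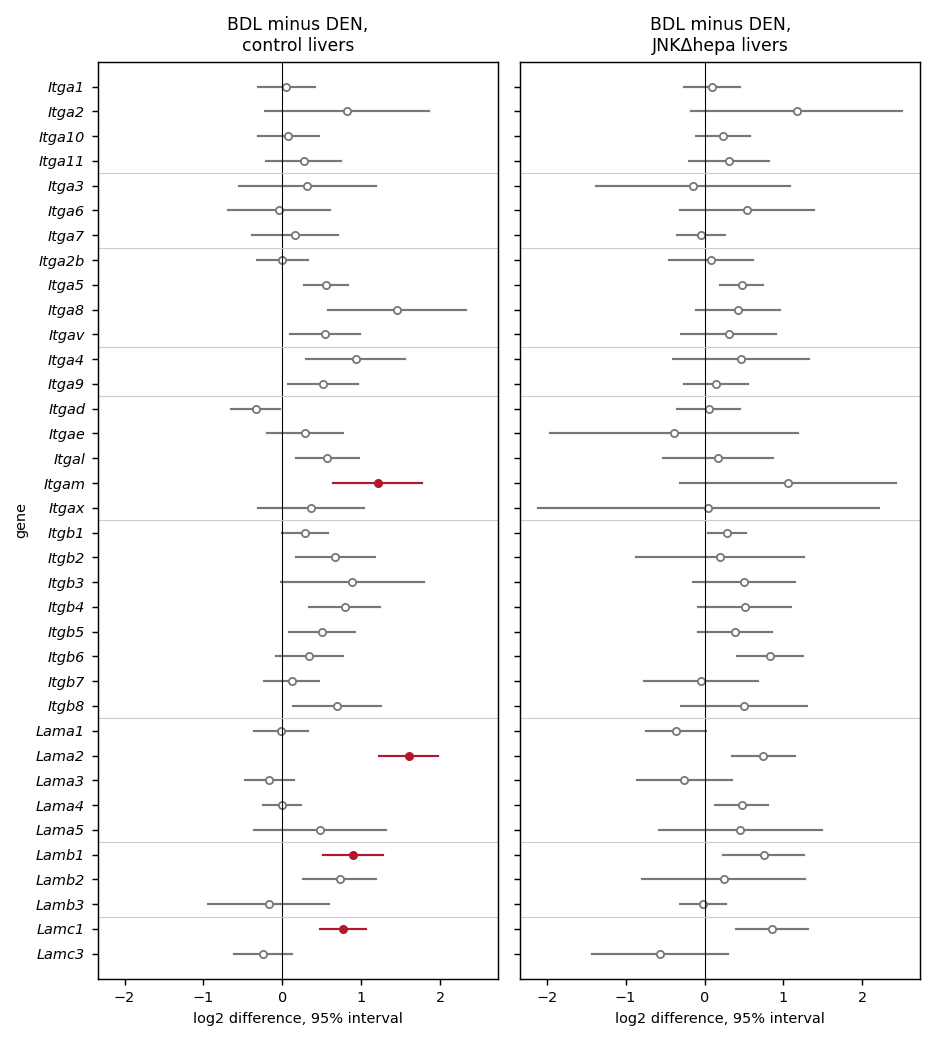
Log2 differences of the 36 members between BDL and DEN with 95% intervals from limma, in control livers on the left and JNKΔhepa livers on the right (3 against 3 each); filled red points were called higher and open grey points were not called. Lama2 in control livers lies at 1.60, and Lamc1, Lamb1 and Itgam are the other calls, while no member was called in JNKΔhepa livers.

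Across all 8 groups some members kept an order that the pairwise comparisons do not show. Itgb6 was highest in NEMO/JNKΔhepa livers (4.70 ± 0.37, SD, n = 3) and next in ligated JNKΔhepa livers (4.09 ± 0.23), and these ranges did not overlap each other or those of the next group (DEN-treated JNKΔhepa, 3.26 ± 0.26). The 6 lower groups followed each other with overlapping ranges down to 2.87 ± 0.30 in DEN-treated controls. Lama2 was high in ligated controls (6.02 ± 0.27) and NEMO/JNKΔhepa livers (6.00 ± 0.32), which did not differ beyond their spread. Livers labelled NEMO knockout at 8 weeks (5.69 ± 0.56) followed, and each group overlapped the next down to DEN-treated controls (4.41 ± 0.13). Itgam was highest in ligated JNKΔhepa livers (7.38 ± 0.12), and did not overlap the next group, ligated controls (6.63 ± 0.32). Its range was reached, however, by replicate 2 of the NEMO/JNK1Δhepa livers (7.40) and replicate 2 of the DEN-treated JNKΔhepa livers (7.33).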

How the data were processed

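RNA of 24 mouse livers (8 groups of 3) was measured on 24 arrays, each liver's group and replicate number being taken from its labels. The deposited values are log2 expression values per probe set, normalised by robust multi-array averaging (RMA) per the submitters' processing notes; its software, chip definition and arrays taken as 1 set were not stated in the labels or file headers. Array medians ran from 4.52 to 4.66 and lower quartiles from 3.09 to 3.23, no detection calls were used, and precision is limited by 3 arrays a group. Of 35556 probe sets, 21218 had 1 gene symbol, 1881 several and 12457 none, and 18820 genes were tested.

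Each comparison was fitted with limma 3.58.1 (R 4.3.3) on the arrays of its groups alone, with Benjamini-Hochberg adjustment over all genes and a threshold of 0.05. The interaction used 12 arrays. An exact test of 3 against 3 livers cannot go below 0.1, so none was used. The members and lists were chosen with earlier results of these data known. Values in every liver are given for called members, up to 14 with the largest difference at 52 weeks and up to 6 elsewhere. With fewer than 3 calls, the 4 with the smallest p are given, and other members are named as exceptions after their values were seen. Up to 3 called genes of a partner or marker list are named by smallest p.

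The alternatives were median centring, quantile normalisation, leaving out dim genes, all 24 arrays in 1 fit, array weights, eBayes with trend and robust, the mean of all probe sets, a replicate block, the mouse series as a block and leaving out each liver. The fits were tested on simulated data with 200 of 18820 genes changed. The 52-week fit called 72% of changes of 1 log2 unit and 91% of changes of 2. The DEN fit called 47% and 82%, the BDL fit 78% and 95%, the 8-week fit 53% and 89% and the interaction 51% and 79%. False calls numbered 2 to 14 a fit. In the measured 52-week data 21.5% of genes were called, a larger share than was changed here, so the simulated rates need not hold there.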

Additional observations from a re-analysis of the deposited data

How the results depend on the processing

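None of the 38 differences chosen by the naming rule changed sign under any alternative, but the rule takes large differences or small p, which favours a kept sign. Of their alternative values 497 kept their side of the threshold, 14 passed it and 41 lost it, and the cause was not tested. Members that were not called kept their side by staying uncalled. Most losses fell on Itgb6 after BDL (10 of 14 alternatives) and, between BDL and DEN in control livers, on Itgam (12 of 15), Lamb1 (8 of 15) and Lamc1 (6 of 15). Small differences of other members did change sign, 5 of them at 52 weeks after median centring. At 52 weeks 21 members rose: 13 did without dim genes (fewer genes were tested), 14 with all 24 arrays in 1 fit and 16 to 18 without 1 liver. The 1 lower member became 4 after median centring and 0 without dim genes, with all 24 arrays, with trend and robust, with the replicate block and without any 1 liver (0 to 0). After BDL the 1 higher member became 0 with all 24 arrays, 2 with array weights and 2 with trend and robust. It became 0 with the replicate block and 0 to 1 without 1 liver, and the 0 lower members became 0 to 1. With quantile normalisation or without dim genes the 1 call was Lama4, not Itgb6. Between BDL and DEN, the 4 higher members in control livers became 2 after centring and 7 with array weights. They became 1 with the replicate block and 1 to 6 without 1 liver. With the series block only ligated control replicate 3 carried the comparisons, so its counts are left out. In JNKΔhepa livers 0 became 1 with all 24 arrays, 11 with array weights and 0 to 9 without 1 liver. The replicate numbers were not taken to pair animals, since in no comparison did every same-numbered pair correlate above 0.1. After DEN, however, the pairs of replicates 1 and 2 correlated at r of 0.36 and 0.30, and that of replicate 3 at 0.04. No member was called there with the replicate block either. With that block 19 members rose at 52 weeks, where each liver correlated best with its own number at r of 0.02 to 0.04. Values near background and 3 livers a group limit what could be called.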

Other observations

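Itgb4 and Itga4 each had a second probe set that the platform annotation shares with a neighbouring gene. That of Itgb4 (shared with B230344G16Rik) stood at 3.99 ± 0.08 (SD, n = 3) in control and 4.28 ± 0.03 in NEMO/JNKΔhepa livers at 52 weeks, a difference of 0.28 (adjusted p = 0.146 over all probe sets, limma), where the set used for Itgb4 differed by 2.01. That of Itga4 (shared with Cerkl) differed by -0.20 (adjusted p = 0.498, limma), where the set used for Itga4 differed by 1.38. Which gene such a probe set reads was not tested.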
